A study of Rattus norvegicus with 6 samples.

Results

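The 32 genes described here were grouped, by symbol alone, as genes of glycoproteins and proteoglycans of basement membranes, elastic fibres and the pericellular matrix. They were taken by symbol from the annotation of the array platform: every gene whose symbol begins with Lama, Lamb, Lamc, Nid, Fbn, Fbln, Efemp, Emilin, Mfap or Ltbp, together with Fn1, Eln, Vcan, Agrn, Matn4 and Vtn. They are 32 of the 14506 genes named by a single symbol, and each had 1 row in the table, so no choice between rows was needed. Lama2, Lama4, Lamb1, Nid1, Hspg2, Mfap1a, Fbln7, Emilin2, Matn2 and Tnxb, which their symbols also place in these families, were not analysed here.

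The RNA came from bone cells of Sprague Dawley rats aged 2 to 5 days, freed from long bones and left to adhere to plates coated with mouse prothrombin (PT) or bovine milk osteopontin (OPN). Prothrombin gives rise to thrombin in clotting, and osteopontin, abundant in mineralised matrix, is a ligand of integrins. Cells on PT were profiled on 3 arrays, numbered 1, 2 and 4, and cells on OPN on another 3, numbered 2, 3 and 4, while no array of unselected bone cells was analysed here. Expression was read as PLIER signal, a linear summary of the probes of a gene, on Affymetrix Rat Gene 1.0 ST arrays. Nothing in the labels tells whether replicates are different animals or cultures. The p-values therefore reflect only how these samples varied, which may be technical variation.

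Basement membranes are thin sheets of matrix beneath epithelia and endothelia and around muscle, fat and Schwann cells. Their frame is built from laminins, cross-shaped trimers of an alpha, a beta and a gamma chain, and from type IV collagen, and nidogens and heparan sulfate proteoglycans tie these networks together. Elastic fibres consist of an elastin core laid down on a scaffold of fibrillin microfibrils. Fibulins and emilins help to assemble them, lysyl oxidases cross-link the elastin, and latent TGF-beta binding proteins anchor stored growth factor to the microfibrils. In bone, fibronectin and fibrillin microfibrils belong to the matrix that osteoblasts and stromal cells lay down, while laminins are known mainly from vessels, nerves and the marrow.

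Of the 32 genes, 11 rose on OPN and 0 fell, in limma's test with Benjamini-Hochberg adjustment over all 29215 rows and a threshold of 0.05 on the adjusted p. The genes that rose came from every class: the laminin chains Lamb2 and Lamc1 and the proteoglycan Agrn of basement membranes, the elastic fibre genes Fbn1, Ltbp3, Fbln1, Fbln5, Efemp2 and Emilin1, and Fn1 and Vcan of the pericellular matrix. Their fold differences lay between 1.32 for Agrn and 2.73 for Lamb2. Elastin itself, 5 of the 7 laminin chains and the 5 genes of microfibril-associated proteins were among the 21 that did not pass. At an unadjusted p under 0.05, 15 of the 32 were higher and 1 was lower.

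The share that rose, 34.4% of the 32 genes, stands beside 5.05% of all rows and 7.62% of all genes named by a single symbol. Over all rows 5.82% were called in either direction and 0.77% were called lower. The median log2 difference, OPN minus PT, was 0.15 over the 32 genes and 0.03 over all rows. Among all called rows 86.8% were higher on OPN, against 68.4% with the array medians made equal and 64.6% with quantile normalisation, and the same 11 of the 32 genes were called under both of these scalings. The arrays of the coatings did not overlap for 15 genes that were higher on OPN and for 1 that was lower, where 16.3% and 7.4% of all rows were separated in those directions. Those 15 include all 11 genes that rose. Of the 21 genes not called, 4 were separated upward and 1 downward, which is near the shares of all rows. Separated arrays alone therefore do not set an uncalled gene apart. Of the 32 genes, 5 were called higher with a log2 difference of at least 1, as were 0.986% of all rows.

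**Figure D1:**
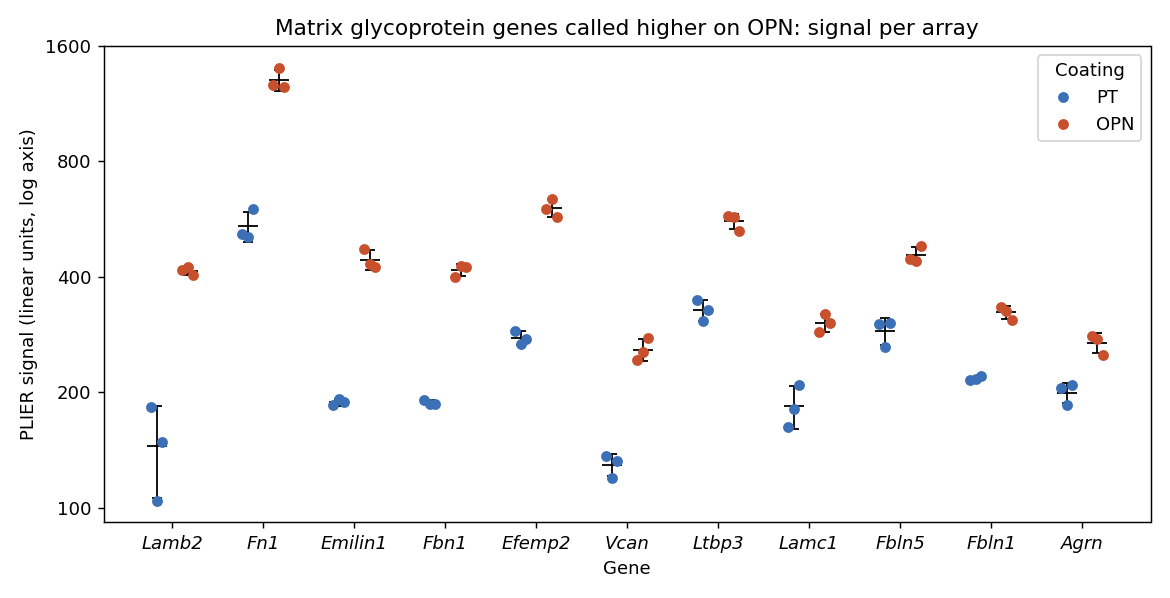
PLIER signal (linear units, log axis) of the 11 genes called higher on OPN, with a point for each of the 3 arrays per coating, and the mean and SD in black. The PT points (blue) lie below the OPN points (orange) for every gene shown, and the PT points of Lamb2 spread from 104 to 183 units.

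In bulk RNA, fewer cells of a type and less RNA per cell cannot be told apart, and the RNA levels of cell type markers differed between the coatings. All 9 osteoblast markers were called higher on OPN, with a median log2 difference of 2.40, and their summed signal lay between 9827 and 10868 units on PT and between 46833 and 52379.5 on OPN. All 7 stromal fibroblast markers were called higher (median 1.82), with sums of 1460 to 1569 on PT and 5435 to 5905 on OPN. Of 8 endothelial markers 7 were called higher (median 0.66), with sums of 1623 to 1755 on PT and 2627 to 2761 on OPN. Of 6 measured osteoclast markers 5 were called higher (median 2.44), with sums of 2638 to 2786 on PT and 20039 to 22594 on OPN. The macrophage markers went the other way: 6 of 9 were called lower and 0 higher (median -0.58), and their sums were 12252 to 12780 on PT and 8674 to 9312 on OPN.

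All 4 measured megakaryocyte and platelet markers were called higher (median 0.73, sums 1840 to 1925 on PT and 3096 to 3357 on OPN), and so were 3 of 7 smooth muscle and pericyte markers (median 0.15, sums 7289 to 8010 on PT and 8038 to 8631 on OPN) and 1 of 6 chondrocyte markers (median 0.12, sums 2088 to 2328 on PT and 2373 to 2558 on OPN). None of 3 Schwann cell, 4 epithelial and 5 skeletal muscle markers was called, also with equal array medians and with quantile normalisation. The muscle filament gene Des (0.34) of the skeletal muscle list was called higher with low rows left out and with the trended and robust variance model (limma adjusted p = 0.0409 in both). The sums of those lists lay at 491 to 532, 875 to 1030.5 and 1785 to 1979 units on PT, and at 501 to 521, 823 to 901 and 1689 to 1851 on OPN. No marker was listed at 0, the lowest single value being 62.1 units. The part of any of these cell types in the differences of the matrix genes was not tested.

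Some of these marker calls did not hold when 1 array was left out. The call of the osteoblast factor Sp7 did not hold when PT replicate 2, PT replicate 4, OPN replicate 3 or OPN replicate 4 was left out (limma adjusted p between 0.0564 and 0.0726), and that of the stromal marker Thy1 when PT replicate 2 or 1 of the 3 OPN arrays was left out (0.0699 to 0.0875). The pericyte marker Cspg4 lost its call without any 1 array (0.0664 to 0.189) and with either scaling, and the cartilage collagen gene Col2a1 when PT replicate 2, PT replicate 4, OPN replicate 2 or OPN replicate 3 was left out (0.0506 to 0.0726).

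**Figure D2:**
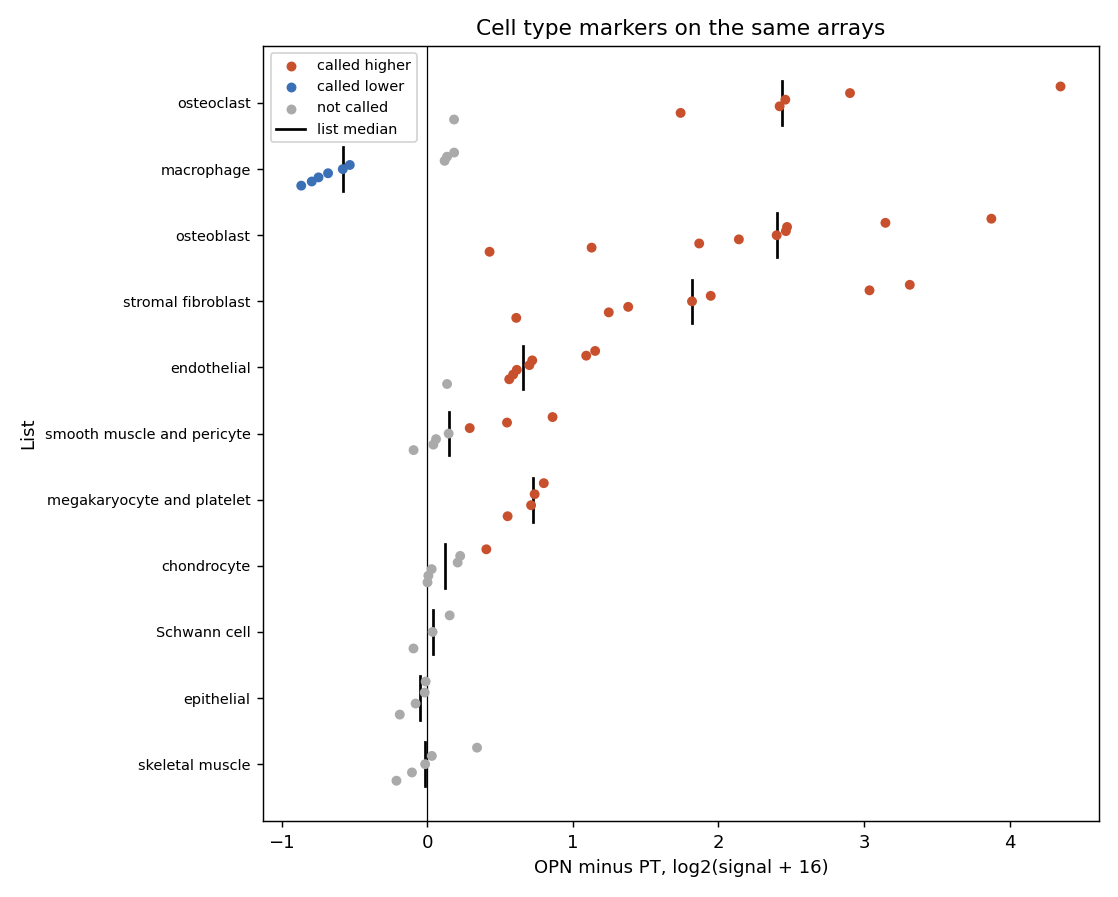
Difference between coatings (OPN minus PT, log2(signal + 16)) of the measured markers of 11 cell types, 1 point per gene, coloured by its call in the fit over all rows, with the median of each list as a black bar. Osteoblast, stromal and osteoclast markers lie far to the right with medians of 2.40, 1.82 and 2.44, and macrophage markers to the left with a median of -0.58.

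Among the laminin chains, 2 of 7 rose on OPN and 0 fell. Lamb2, the beta chain of laminins at synapses, in kidney glomeruli and in vessel walls, read 183, 104 and 148 units on the PT arrays and 416, 423 and 403 on the OPN arrays. The lowest OPN array stood far above the highest PT array, though the PT arrays differed among themselves by more than those of any other gene that rose (coefficient of variation 27.2% on PT and 2.46% on OPN). The difference was 1.45 on the log2 scale (SE 0.16), a 2.73-fold change with adjusted p = 8.42e-04 in limma. Lamc1, the gamma chain shared by most laminin trimers, had 162, 181 and 209 units on PT and 287, 319 and 304 on OPN. It rose 1.60-fold (log2 difference 0.68, SE 0.10, adjusted p = 0.00339 in limma), and its arrays did not overlap.

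The other laminin chains stayed within 0.1 of 0 on the log2 scale and none was called. Lamb3, a beta chain of epithelial laminins, had 254 ± 5.15 units on PT and 237 ± 17.5 on OPN (SD, n = 3), and Lamc3 had 207 ± 9.64 and 196 ± 5.31 (SD, n = 3). Their 95% intervals for the log2 difference ran from -0.27 to 0.08 and from -0.23 to 0.08. The alpha chains Lama1 (-0.08), Lama3 (0.03) and Lama5 (0.07) had arrays that overlapped between the coatings, and the difference of Lama3 became negative under both scalings. The alpha chains had 95% intervals of -0.29 to 0.12 for Lama1, -0.19 to 0.25 for Lama3 and -0.12 to 0.26 for Lama5.

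Nid2, a nidogen that links laminin to type IV collagen, had 226, 222 and 247 units on PT and 291, 286 and 281 on OPN. Its arrays did not overlap, but the 1.22-fold difference missed the threshold (log2 difference 0.29, SE 0.07, adjusted p = 0.0515 in limma). Without PT replicate 4, or with rows below the lower quartile of mean signal left out, it passed (adjusted p = 0.0479 and 0.0213). Agrn, the proteoglycan that clusters acetylcholine receptors at nerve-muscle contacts and also occurs in vessel basement membranes, had 205, 185 and 208 units on PT and 280, 276 and 249.997 on OPN. This was the smallest difference among the 11 that rose (1.32-fold, log2 difference 0.40, SE 0.08, adjusted p = 0.0188). Its call was lost without PT replicate 2, OPN replicate 2 or OPN replicate 3, with adjusted p = 0.0657, 0.0920 and 0.0917 in limma.

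**Figure D3:**
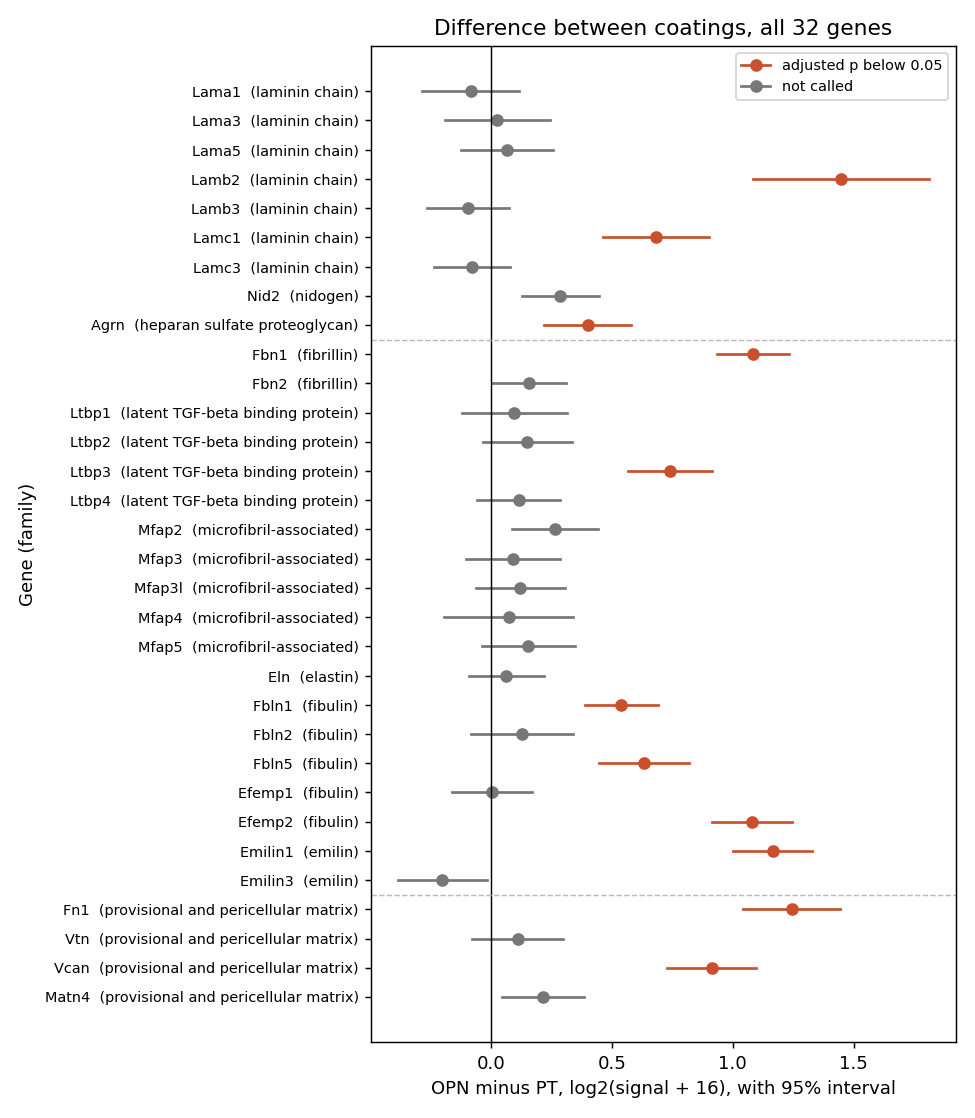
Difference between coatings (OPN minus PT, log2(signal + 16)) of the 32 genes, with 95% intervals from limma, arranged by family and divided by dashed lines into basement membrane, elastic fibre and other matrix genes. The 11 called genes (orange) lie between 0.40 and 1.45, and the intervals of the 21 others (grey) stay between -0.38 and 0.45.

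Of the 19 elastic fibre genes, 6 rose and 0 fell. Fbn1, the main fibrillin of microfibrils, whose mutations cause Marfan syndrome in humans, had 191, 186 and 186 units on PT and 400, 426 and 423 on OPN, a 2.12-fold difference (log2 1.08, SE 0.07, adjusted p = 2.07e-05 in limma). Both groups of arrays were tight and lay far apart. Fbn2, the fibrillin of developing tissues, had 169 ± 3.08 units on PT and 191 ± 7.46 on OPN (SD, n = 3). Its arrays did not overlap either, and the 1.12-fold difference was not called (adjusted p = 0.258 in limma, 95% interval of the log2 difference 0.01 to 0.31).

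Efemp2, a fibulin that binds lysyl oxidase and is needed for elastic fibres to form in mice, had 289, 267 and 275 units on PT and 601, 637 and 573 on OPN. It rose 2.11-fold (log2 difference 1.08, SE 0.07, adjusted p = 4.16e-05 in limma). Fbln5, which also takes part in elastic fibre assembly and binds integrins, had 300.3, 262 and 303 units on PT and 446, 440.3 and 480.4 on OPN, a 1.55-fold rise (adjusted p = 0.00195). Fbln1, a fibulin found with fibronectin and in basement membranes, had 215, 216 and 219.7 units on PT and 334, 326 and 309 on OPN, a 1.45-fold rise (adjusted p = 0.00155). None of these 3 genes had overlapping arrays.

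The remaining fibulins did not pass. Fbln2 had 184 ± 6.86 units on PT and 203 ± 24.8 on OPN (SD, n = 3), with 1 OPN array at 180.0 inside the PT range. Efemp1 had 205 ± 9.05 units on PT and 206 ± 11.4 on OPN (SD, n = 3), and its difference of 0.0048 on the log2 scale turned below 0 with either scaling (95% interval -0.16 to 0.17).

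Emilin1, which sits where elastin meets the microfibrils, had 185, 192 and 188 units on PT and 473, 432 and 424 on OPN, a 2.24-fold rise with adjusted p = 2.15e-05 in limma (log2 difference 1.17, SE 0.07). The arrays of the coatings lay far apart. Emilin3, a relative of Emilin1, was the only one of the 32 genes whose arrays were separated in the other direction, at 241, 211 and 248 units on PT and 198, 195 and 209 on OPN. That difference was not called (log2 -0.20, SE 0.08, adjusted p = 0.239 in limma).

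Ltbp3, a latent TGF-beta binding protein known for its role in bone growth, was the member of its family that rose. It had 348, 307 and 328 units on PT and 575, 572 and 528 on OPN, a 1.67-fold difference with adjusted p = 5.45e-04 in limma. Ltbp1 (0.10), Ltbp2 (0.15) and Ltbp4 (0.12), which bind latent TGF-beta or, in the case of Ltbp2, fibrillin, were not called, and their arrays overlapped between the coatings. The upper bounds of their 95% intervals were 0.31, 0.34 and 0.29 on the log2 scale.

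Elastin and the microfibril-associated genes were not called. Eln, the elastic protein of the fibre core, had 398, 384 and 415 units on PT and 413, 409 and 433 on OPN, so that the coatings overlapped (log2 difference 0.06, 95% interval -0.09 to 0.22), and the sign of the difference turned with either scaling. Mfap2, a small glycoprotein of fibrillin microfibrils, had 385, 371 and 334 units on PT and 431, 461 and 426 on OPN. Its arrays were separated, but the 1.20-fold difference had an adjusted p of 0.103 in limma. It was called with low rows left out (adjusted p = 0.0482) and with a trended and robust variance model (adjusted p = 0.0314). Mfap5 (0.16), its relative, and Mfap3l (0.12), Mfap3 (0.09) and Mfap4 (0.07) had overlapping arrays and adjusted p between 0.396 and 0.824.

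Fn1 and Vcan rose among the 4 remaining matrix genes. Fn1, the fibronectin gene, whose protein assembles into fibrils through integrins, had 518, 508 and 599 units on PT and 1263, 1397 and 1248 on OPN. It rose 2.37-fold (log2 difference 1.24, SE 0.09, adjusted p = 5.55e-05 in limma), and every OPN array read above the PT arrays. Vcan, the large hyaluronan-binding proteoglycan versican, had 137, 119.6 and 132 units on PT and 242, 255 and 276 on OPN, a 1.88-fold rise with adjusted p = 2.16e-04. Matn4, a matrilin, had separated arrays, at 158 ± 11.9 units on PT and 186 ± 3.38 on OPN (SD, n = 3), and was not called (log2 0.22, adjusted p = 0.163). Vtn, the gene of the plasma adhesion protein vitronectin, which is made mostly in liver, had 156, 156 and 158 units on PT and 187, 172 and 153 on OPN, with the OPN arrays lying on both sides of the PT arrays (adjusted p = 0.572).

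Within several families a gene that rose stood beside one that was not called, so the difference between the pair was measured within each array. The 7 pairs were picked after their values were seen. The log2 ratio of Lamb2 to Lamb3 was -0.78 ± 0.38 on PT and 0.76 ± 0.079 on OPN (SD, n = 3), a shift of 1.54. The ratio of Emilin1 to Emilin3 shifted by 1.37, that of Efemp2 to Efemp1 by 1.08 and that of Fbn1 to Fbn2 by 0.93. The shifts were 0.76 for Lamc1 over Lamc3, 0.64 for Ltbp3 over Ltbp1 and 0.51 for Fbln5 over Fbln2. In all 7 pairs the OPN ratios lay above the PT ratios without overlap. Because each pair set a gene that rose over one that was not called, the choice favoured this outcome, and it adds no evidence. Each pair had p = 0.1 in a two-sided exact permutation test, also after adjustment over the 7 pairs, and no smaller p is possible with groups of 3.

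The sequence just upstream of the genes that rose was read from RefSeq promoter windows of the GRCr8 build, which covered 7 of the 11 genes that rose and 17 of the 21 others. The windows of Fn1, Fbln1, Lamb2 and Emilin1 were not in the table. Shown are the 250 bases before the annotated start of the 4 genes with the greatest differences among those with a window, leaving out Fbn1 and Vcan, whose annotated start (for Vcan, that of the first of its windows) reads ATG. Capitals mark the GC box, the hexamer GGGCGG on either strand, and overlapping boxes run together.
Efemp2: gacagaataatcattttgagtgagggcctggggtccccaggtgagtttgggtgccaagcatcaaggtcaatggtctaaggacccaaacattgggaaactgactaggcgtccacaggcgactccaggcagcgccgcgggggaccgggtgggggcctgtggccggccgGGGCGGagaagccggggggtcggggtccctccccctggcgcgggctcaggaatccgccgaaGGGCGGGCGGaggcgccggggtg
Ltbp3: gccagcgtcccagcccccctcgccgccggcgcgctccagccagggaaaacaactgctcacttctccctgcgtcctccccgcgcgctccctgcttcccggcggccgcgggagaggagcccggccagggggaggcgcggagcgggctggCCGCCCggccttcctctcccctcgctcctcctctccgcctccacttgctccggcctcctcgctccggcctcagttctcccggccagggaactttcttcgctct
Lamc1: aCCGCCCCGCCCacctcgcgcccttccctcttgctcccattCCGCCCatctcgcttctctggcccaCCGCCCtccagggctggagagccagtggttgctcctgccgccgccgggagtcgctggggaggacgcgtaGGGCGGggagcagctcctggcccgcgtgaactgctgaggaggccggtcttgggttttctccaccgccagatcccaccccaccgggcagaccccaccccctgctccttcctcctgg
Fbln5: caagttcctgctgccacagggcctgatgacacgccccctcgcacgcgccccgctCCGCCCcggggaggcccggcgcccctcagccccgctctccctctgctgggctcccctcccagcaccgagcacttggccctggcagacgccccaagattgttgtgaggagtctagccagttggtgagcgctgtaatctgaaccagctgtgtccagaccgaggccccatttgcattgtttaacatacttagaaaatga
These windows lie at chr1:212211472-212211721 on the plus strand (Efemp2), chr1:212458955-212459204 on the plus strand (Ltbp3), chr13:68051987-68052236 on the minus strand (Lamc1) and chr6:126742707-126742956 on the minus strand (Fbln5).

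All 4 windows were rich in G and C, at 68.0% for Efemp2, 74.0% for Ltbp3, 71.2% for Lamc1 and 63.2% for Fbln5. They held 3, 1, 5 and 1 GC boxes. The counts that follow include windows whose annotated start reads ATG, 2 of the 7 of genes that rose and 3 of the 17 of the others. A GC box occurred in 5 of the 7 windows of genes that rose, in 9 of the 17 windows of the others and in 30.5% of 33356 windows of the same length. The AP-1 motif TGANTCA occurred in 0 and 2 of these windows and in 6.35% of all, the cyclic AMP response element TGACGTCA in 0 and 2 and in 1.59% of all, and the TATA hexamer TATAAA in 0 and 0 and in 12.9% of all, each searched on both strands. The motifs could overlap one another only where their letters allow it, and a match describes letters in the window and no binding.

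Genes that act with these matrix proteins were followed through 5 lists. In the list of elastic fibre cross-linking and assembly, 5 of 8 genes with a row rose and 0 fell, and the median log2 difference of the list was 0.89, beside 0.03 over all rows. All 5 were lysyl oxidases. Lox, the enzyme that cross-links elastin and collagen, had 254 ± 43.1 units on PT and 2676 ± 231 on OPN (SD, n = 3), a 10.01-fold difference. Loxl4 (1.12), Loxl2 (1.09), Loxl1 (0.95) and Loxl3 (0.82) rose by smaller amounts, while Adamtsl5, Adamtsl3 and Adamtsl4, microfibril-binding relatives of the ADAMTS proteases, lay between -0.04 and 0.11 and were not called. Osteoblast and stromal markers rose on the same arrays, as given above, and their part in these differences was not tested.

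The list of basement membrane collagens and linkers held 16 genes, of which 8 were measured. Col4a2, Col4a5, Col4a6, Col15a1 and Col18a1 were among those not analysed here. Of the 8 measured, Col4a1 alone rose. This chain of type IV collagen had 208 ± 18.9 units on PT and 396 ± 19.3 on OPN (SD, n = 3), which is 1.84-fold higher (limma adjusted p = 3.35e-04). Pxdn (0.10), the peroxidase that cross-links type IV collagen, and Smoc2 (0.08) were not called, and neither was the linker gene Egfl6 (-0.07). The 8 measured genes had a median of 0.04, which turned to -0.03 with equal array medians and -0.02 with quantile normalisation. Markers of several cell types rose on the same arrays, as given above. Among them were endothelial (7 of 8, median 0.66), osteoblast (9 of 9, median 2.40) and stromal fibroblast markers (7 of 7, median 1.82). Their part in the difference of Col4a1 was not tested.

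Among receptors of laminin and fibronectin, 9 of the 18 with a row rose, 0 fell and the median was 0.34. The syndecan Sdc2, a cell surface heparan sulfate proteoglycan, was 6.55-fold higher and Sdc1 2.17-fold. The integrin chain Itgb3, which pairs to receptors for vitronectin, fibronectin and osteopontin and is also on the osteoclast list, was 3.34-fold higher. Itgb1, the beta chain of the main laminin and fibronectin receptors, had 1177 ± 30.4 units on PT and 1949.7 ± 65.8 on OPN (SD, n = 3), a 1.65-fold rise. The lowest value in the list was that of Itga4 (-0.25, adjusted p = 0.134 in limma), a fibronectin-binding chain of blood cells, which was called lower with the trended and robust variance model (adjusted p = 0.0447). From 6 to 9 genes of this list were called when 1 array was left out. Those that lost their call were Sdc3 without any 1 array but PT replicate 2 (adjusted p between 0.0552 and 0.119), Itga2 without any 1 array but PT replicate 1 or OPN replicate 4 (0.0814 to 0.129) and Itga5 without OPN replicate 2 or 3 (0.0543 and 0.0537).

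The latent growth factors gave 3 genes that rose of 7 measured and 0 that fell, with a median of 0.39. Bmp2, dim at 65.5 ± 14.1 units on PT and 137 ± 9.13 on OPN (SD, n = 3), was 1.90-fold higher (adjusted p = 0.00265 in limma). The signal of Bmp5 was also low, at 74.3 ± 10.7 units on PT and 109 ± 3.68 on OPN (SD, n = 3). With low rows left out, 5 genes of the list remained, 2 of them were called and the median was 0.18. Bmp5 (0.48) and Tgfb1 (0.39) were called at adjusted p = 0.0213 and 0.0299 in limma, and Tgfb2 (0.39) was not (adjusted p = 0.107). Tgfb2 passed without PT replicate 1 (adjusted p = 0.0494), with low rows left out (0.0383) and with the trended and robust variance model (0.0499). The call of Bmp5 was lost without any 1 of the 3 OPN replicates (adjusted p between 0.0633 and 0.0826) and with either scaling. That of Tgfb1 did not hold when PT replicate 1, PT replicate 2, OPN replicate 2 or OPN replicate 3 was left out (adjusted p between 0.0704 and 0.129) and with equal array medians, so that 1 to 3 genes were called when 1 array was left out. Of the latent TGF-beta genes, Tgfb3 (0.18) was not called either.

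Proteases that cut elastin, versican or laminin rose in 9 of 15 cases, and 1 fell, with a median of 0.90. Ctsk, the main collagenase of osteoclasts, which also cuts elastin, was 20.4-fold higher, and Mmp9, a gelatinase and elastase, 7.48-fold. Both are on the osteoclast list too. The versican-cutting protease Adamts1 had 83.0 ± 7.08 units on PT and 592 ± 27.5 on OPN (SD, n = 3), a 6.14-fold rise, and Mmp2 rose 5.94-fold. Ctss, an elastin-cutting cathepsin of macrophages, fell by 0.39 on the log2 scale (adjusted p = 0.01 in limma), a call lost without OPN replicate 2 (adjusted p = 0.0612). Mmp12, the macrophage elastase, had 166 ± 6.81 units on PT and 186 ± 8.06 on OPN (SD, n = 3) and was not called (adjusted p = 0.307).

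**Figure D4:**
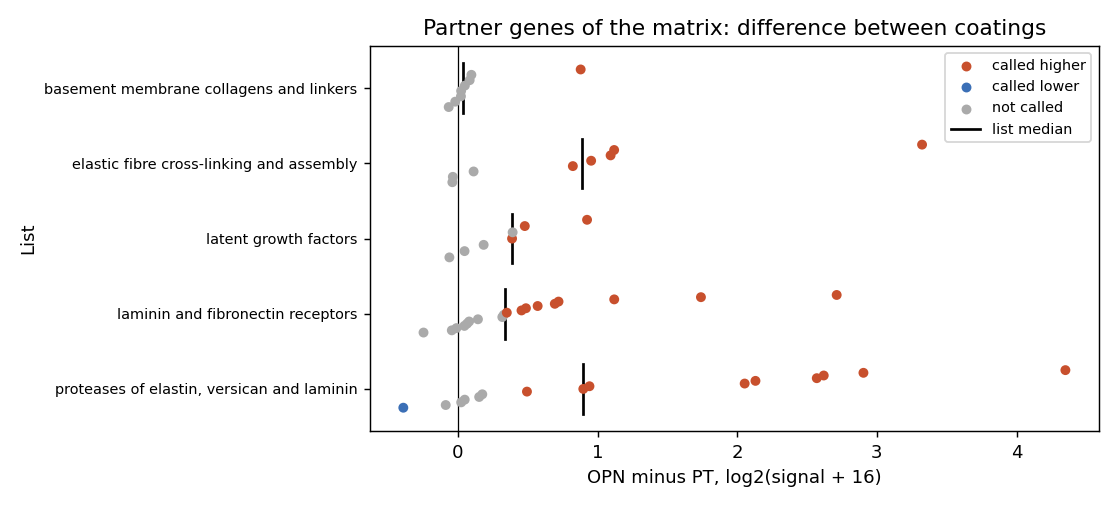
Difference between coatings (OPN minus PT, log2(signal + 16)) of the measured genes of 5 partner lists, 1 point per gene, coloured by its call in the fit over all rows, with the median of each list as a black bar. The lysyl oxidase Lox (3.32) stands furthest right in the cross-linking list, Col4a1 (0.88) is the called point of the basement membrane list, and Ctss (-0.39) is the point called lower.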

How the data were processed

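RNA of 6 samples, 3 per coating, was measured on Affymetrix Rat Gene 1.0 ST arrays; groups and replicate numbers come from the sample titles. The deposited table holds linear intensity values, 1 per probe set and array, made with Affymetrix Expression Console and PLIER per the submitters' processing notes. How background was corrected and arrays were scaled is not given in the sources used here, nor is a genome build. The array medians lay between 207.8 and 231.4 units. No detection calls were used, so background of unknown size in dim rows can shrink their differences. Precision is limited by the number of arrays. Every column of per-sample values was used.

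Of 29215 rows, 15310 had 1 gene symbol, 323 several and 13582 none; rows with several gave no gene names. All 32 genes matched the GRCr8 gene table by Entrez identifier, and 0 symbols changed. Genes with several rows were represented by the row of highest mean.

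Values were transformed as log2(intensity + 16), so folds are on this scale and understate the change of dim rows. All rows entered one limma fit (lmFit, eBayes; limma 3.58.1, R 4.3.3) whose single factor was coating. Adjusted p-values are Benjamini-Hochberg values over all rows, called below 0.05. Only called genes are said to rise or fall. The fit was tested on simulated data. The genes and lists were chosen with earlier results of these data known. Every one of the 32 genes is named; of the partner lists, up to 4 genes with the smallest p and any called against the list's majority, plus genes outside this rule that were named after their values were seen (the Adamtsl genes, Loxl1, Tgfb3, Itga2, Itga4, Itga5, Sdc3, Mmp12 and the markers). Lists are described by counts and medians, with no set test. Although both groups have a replicate 2 and a replicate 4, no label ties these numbers to a common preparation, and the fit has no block. The alternatives were other offsets, scalings, a filter, another variance model, a replicate block and leaving out each array.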

Additional observations from a re-analysis of the deposited data

How the results depend on the processing

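Leaving out 1 array at a time gave 10 to 12 of the 32 genes called, 0 of them lower, and 1023 to 1486 rows called in all. The fewest rows were called without OPN replicate 3 (1023) and without OPN replicate 2 (1080), against 1700 with all arrays. All 11 genes that rose were also called with an offset of 1 or 64, equal array medians, quantile normalisation, rows below the lower quartile of mean signal left out, and a trended, robust variance model; the last 2 added Nid2 and Mfap2, and an offset of 64 added Nid2. Calls in the lower direction over all rows numbered 225, and 551 with equal medians, 745 with quantile normalisation, 423 with low rows left out, 516 with the variance model, 382 with an offset of 64 and 95 to 181 with 1 array left out.

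With the replicate number as a block, 666 rows were called, 48 of them in the lower direction. Of the 32 genes 8 were called (Lamc1, Agrn and Fbln1 were lost, at limma adjusted p = 0.0579, 0.227 and 0.0745). So were 4 receptors and 1 gene of the latent growth factor list. This fit rests on the 2 shared numbers and keeps 4 arrays for the contrast. In it 8 of 9 osteoblast, 6 of 7 stromal fibroblast and 5 of 8 endothelial markers were called higher. The counts were 3 of 4 for megakaryocytes and platelets, 1 of 7 for smooth muscle and pericytes and 0 of 6 for chondrocytes. Osteoclast markers stayed at 5 of 6 called higher and macrophage markers at 6 of 9 called lower. Deviations from the group means correlated at -0.08 for number 2 and 0.07 for number 4. With so few arrays these values cannot tell whether a shared number marks a shared preparation.

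With equal array medians 1 gene of the latent growth factor list was called, and leaving out 1 array gave 1 to 3. Directions turned for uncalled genes only. Efemp1 went to -0.060 with equal medians, -0.056 with quantile normalisation, -0.039 with the block and between -0.019 and 0.048 with 1 array left out. Eln went to -0.0026 and -0.012 and Lama3 to -0.037 and -0.040 under the same scalings. With 1 array left out Lama3 lay between -0.051 and 0.092 and Mfap4 between -0.0100 and 0.17. The cause was not tested. No gene of the 32 has a second row, so that alternative gave no value. The small number of arrays and the unknown background under dim rows limit what can be seen: Agrn (0.40) passed the threshold and Nid2 (0.29) missed it.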
